A study of Homo sapiens with 8 samples.

Results

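The 10 genes described here set how readily a T-cell leukaemia line can leave G1: the D-type cyclins CCND2 and CCND3, their kinases CDK4 and CDK6, the kinase inhibitors CDKN1A, CDKN1B, CDKN1C, CDKN2C and CDKN2D, and the substrate RB1. They were chosen by symbol, and each of the 10 matched 1 of the 63677 gene identifiers in the count tables. RNA was sequenced from 2 T-cell acute lymphoblastic leukaemia (T-ALL) lines, MOLT-4 and DND-41, each kept for 8 h in 100 nM ACBI-1 or in its solvent DMSO. The 4 groups were MOLT-4 with ACBI-1, MOLT-4 with DMSO, DND-41 with ACBI-1 and DND-41 with DMSO, with 2 libraries each. ACBI-1 is a degrader that brings the chromatin remodelling proteins SMARCA2, SMARCA4 and PBRM1 to the VHL ubiquitin ligase, so its action is on protein and was not measured here. Both are established cell lines, so each stands for 1 case of the disease, and the labels do not say that replicate libraries came from separate cultures, so p-values rest on library-to-library spread that may be technical only.

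In the textbook pathway, D-type cyclins rise with mitogen or NOTCH signals and activate CDK4 and CDK6, which phosphorylate RB1 and release E2F transcription factors that start S phase. The INK4 inhibitors (the CDKN2 genes) bind CDK4 and CDK6 themselves, while the CIP/KIP inhibitors (the CDKN1 genes) bind cyclin-kinase complexes, including those of CDK2. Cyclin D3 and CDK6 are the forms best known from immature T cells and T-ALL.

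Each library held 19860759 to 20239888 counts, and 3 counts are 0.148 to 0.151 CPM of that total. Levels below are CPM over the effective library size, a total scaled to match the bulk of genes between libraries. A positive log2 fold change means higher with ACBI-1 than with DMSO, and its ± is the SE of 2 libraries against 2. Calls are edgeR quasi-likelihood tests at a Benjamini-Hochberg adjusted p below 0.05 over all genes of the fit. Of 10 T-lineage markers, 10 in each MOLT-4 group and 9 in each DND-41 group had more than 3 counts in both libraries. PTCRA, the pre-T-cell receptor alpha chain, had 0 or 1 count in the DND-41 libraries. The B-lineage marker CD79A was high in DND-41 (19546 and 21426 counts with ACBI-1, 33044 and 32831 with DMSO), while MS4A1 and PAX5 were at 0 in every library. The MOLT-4 replicate 2 libraries stood apart in collagen RNA: COL1A1 had 0 and 207 counts with ACBI-1 and 42 and 1115 with DMSO, against 0 to 2 in DND-41. Of the 5 stromal or epithelial markers, EPCAM and PECAM1 were at 0 throughout, and the summed level of the list was 0.688 to 14.3 CPM in MOLT-4 with ACBI-1, 3.89 to 69.1 CPM in MOLT-4 with DMSO and 0.0479 to 0.190 CPM in DND-41. The mitochondrially encoded share of counts was 21.3% and 24.6% in MOLT-4 with ACBI-1, 19.0% and 14.4% in MOLT-4 with DMSO, 15.5% and 11.8% in DND-41 with ACBI-1 and 12.1% and 13.2% in DND-41 with DMSO. Member calls and list counts that moved without the MOLT-4 replicate 2 libraries are given below with and without them. Without them each MOLT-4 arm held 1 library, so the spread in that fit came from the DND-41 libraries. Whether a call ended there through the collagen-bearing libraries or through fewer libraries cannot be told apart. Leaving out any 1 library likewise left 1 in its group.

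Promoter sequences of the kinases and of CCND3 are shown first, since CDK4 and CDK6 share their cyclins and CCND3 changed in opposite directions in the lines. The windows are the 250 bases before RefSeq transcription starts in GRCh38.p14, which is not the hg19 build of the counts, and 8 of the 10 genes had an entry (13 windows). They were searched on both strands for GATA factors (AGATAA), RBPJ (TGGGAA), RUNX (TGTGGT), E-box (CACGTG), E2F (GCGGGAA) and GC box (GGGCGG) letters, which capitals mark. The windows are CDK4 (chr12:57752311-57752560, minus strand), CDK6 start 1 (chr7:92836574-92836823, minus strand), CDK6 start 2 (chr7:92833960-92834209, minus strand), CCND3 start 1 (chr6:42048689-42048938, minus strand) and CCND3 start 2 (chr6:41941809-41942058, minus strand).
CDK4: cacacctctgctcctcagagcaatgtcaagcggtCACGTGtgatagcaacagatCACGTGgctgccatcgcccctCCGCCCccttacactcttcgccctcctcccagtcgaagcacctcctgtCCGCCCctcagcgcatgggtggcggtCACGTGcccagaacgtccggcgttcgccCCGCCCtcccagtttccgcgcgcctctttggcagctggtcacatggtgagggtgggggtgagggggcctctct
CDK6 start 1: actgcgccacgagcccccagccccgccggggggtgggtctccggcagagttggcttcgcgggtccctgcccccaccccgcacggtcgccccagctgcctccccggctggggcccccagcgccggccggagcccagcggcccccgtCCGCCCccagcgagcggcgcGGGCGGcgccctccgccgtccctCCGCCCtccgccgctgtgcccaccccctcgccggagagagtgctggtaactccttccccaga
CDK6 start 2: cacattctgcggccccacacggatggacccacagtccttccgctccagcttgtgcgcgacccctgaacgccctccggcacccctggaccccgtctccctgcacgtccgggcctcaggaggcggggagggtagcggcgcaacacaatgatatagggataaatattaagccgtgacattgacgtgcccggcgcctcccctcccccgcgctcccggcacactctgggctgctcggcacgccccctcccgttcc
CCND3 start 1: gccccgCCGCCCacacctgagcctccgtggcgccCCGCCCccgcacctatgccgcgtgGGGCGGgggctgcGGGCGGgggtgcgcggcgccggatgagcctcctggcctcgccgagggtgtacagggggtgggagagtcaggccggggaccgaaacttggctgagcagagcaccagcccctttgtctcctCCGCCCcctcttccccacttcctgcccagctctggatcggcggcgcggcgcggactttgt
CCND3 start 2: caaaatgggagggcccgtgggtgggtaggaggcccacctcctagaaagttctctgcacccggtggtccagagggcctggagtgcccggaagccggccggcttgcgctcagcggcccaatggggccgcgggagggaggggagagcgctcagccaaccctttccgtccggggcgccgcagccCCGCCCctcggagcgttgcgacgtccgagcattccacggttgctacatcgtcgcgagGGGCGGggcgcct
The CDK4 window holds 3 CACGTG motifs, at 216 to 211, 196 to 191 and 101 to 96 bases before the start, and 3 GC boxes. Of 35116 windows of the same length, 6.34% hold CACGTG at all and 0.0797% hold 3 or more. The share with 3 or more was computed for this motif alone, at the number that CDK4 holds. No such share was computed for the other motifs, so it does not measure how rare the CDK4 window is in the whole search. Neither CDK6 window nor any of the 3 CCND3 windows holds RBPJ, RUNX, GATA, E-box or E2F letters, and GC boxes, present in 42.6% of windows, are the motifs marked there. CDKN2C, whose sequence is not printed, has CACGTG at its start 1 and start 3 and 2 GCGGGAA at its start 2, a motif in 5.52% of windows. The RBPJ letters are in 20.8% of windows, the RUNX letters in 11% and the GATA letters in 9.17%, and none of the 3 is in any of the 13. These matches describe letters only and show no binding.

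CDK6 fell in both lines and CCND3 changed in opposite directions, while 3 of the 4 inhibitors with 10 or more counts in every library of the line fell in MOLT-4 and 1 of 4 fell in DND-41. The 3 were CDKN2D, CDKN1A and CDKN1B. Without replicate 2 in both MOLT-4 arms, 1 library against 1, CDKN1A was at −0.81 (from −1.35) and CDKN1B at −0.13 (from −0.22). In such bulk samples a lower level from fewer cells cannot be told apart from less RNA per cell. CDKN1C, which passed the MOLT-4 count filter through its DMSO libraries alone, is left out of the counts and medians that follow. In MOLT-4, 2 of 9 members were higher and 5 lower, against a background of 20.7% higher and 24.4% lower, 45.1% in either direction, among 14239 genes. In DND-41, 0 of 8 tested members were higher and 3 lower, against 20% higher and 23.2% lower, 43.2% in either direction, among 14008 genes, and 0 members were higher also at an unadjusted p below 0.05 or by DESeq2. The other 2, CCND2 and CDKN1C, did not pass the count filter there. The median log2 fold change of the members was −0.22 in MOLT-4 and −0.09 in DND-41, and that of all genes tested was 0.00 in MOLT-4 and 0.01 in DND-41. The difference between lines, MOLT-4 minus DND-41, passed for 3 members, 1 higher and 2 lower, against a background of 7.18% and 6.17%, 13.3% in either direction, of 15498 genes.

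**Figure D1:**
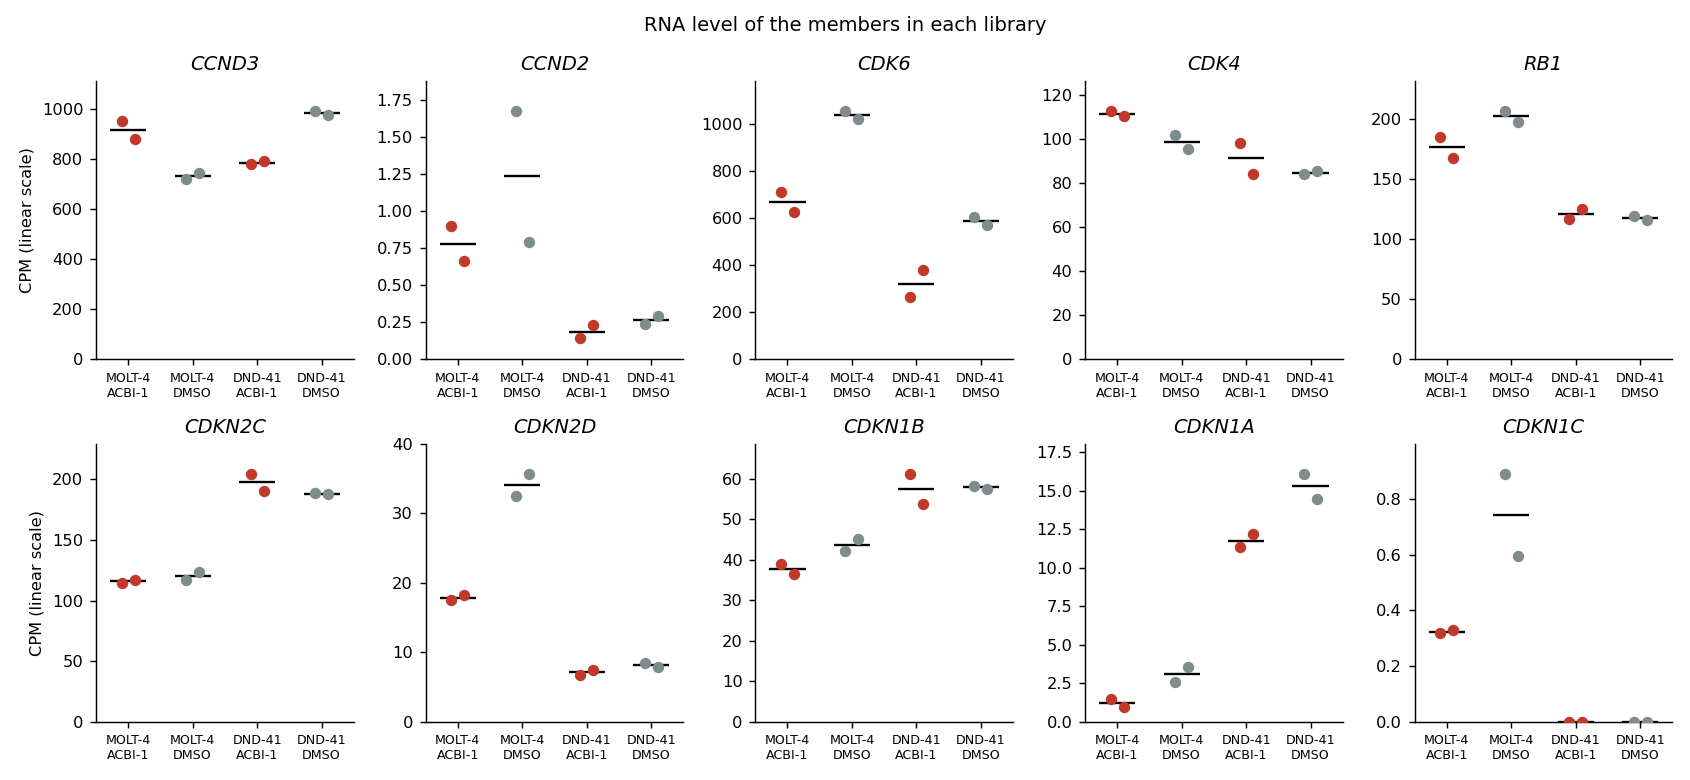
CPM of each member (linear axes, a separate scale per gene) in the 2 libraries (points) of MOLT-4 with ACBI-1, MOLT-4 with DMSO, DND-41 with ACBI-1 and DND-41 with DMSO, with bars at the mean. CCND3 lies above its DMSO libraries in MOLT-4 and below them in DND-41, CDK6 lies below them in both lines, and CDKN1C is at 0 in DND-41.

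**Figure D2:**
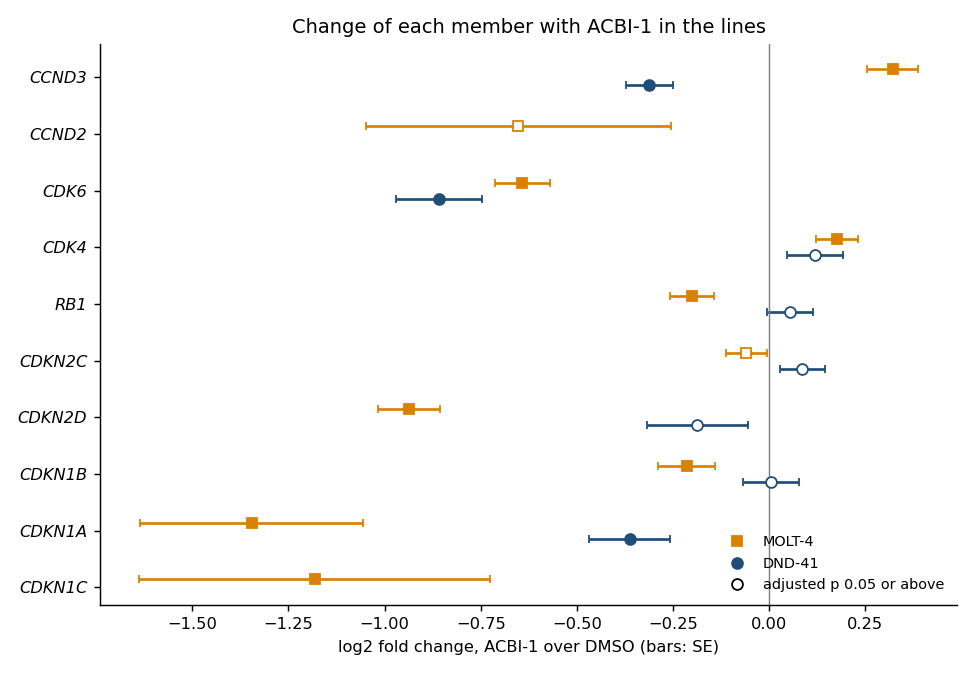
Log2 fold change of each member, ACBI-1 over DMSO (x axis), in MOLT-4 (squares) and DND-41 (circles), with SE bars; filled symbols passed an adjusted p of 0.05. CCND3 is at 0.32 in MOLT-4 and −0.31 in DND-41, and DND-41 has no symbol for CCND2 and CDKN1C, which were not tested there.

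CCND3 (ENSG00000112576, chromosome 6) encodes cyclin D3 and was the dominant D-type cyclin. It had 951 and 881 CPM in MOLT-4 with ACBI-1, against 719 and 744 CPM with DMSO. DND-41 cells had 779 and 790 CPM with ACBI-1, against 991 and 976 CPM with DMSO. The ACBI-1 libraries lay above both DMSO libraries in MOLT-4 and below both in DND-41, with no overlap in either line. CCND3 rose in MOLT-4 (log2 fold change 0.32 ± 0.07, adjusted p = 5.89e-04) and fell in DND-41 (−0.31 ± 0.06, adjusted p = 7.90e-04). The difference between lines was 0.65 ± 0.09 (adjusted p = 3.91e-05), and it held under all 16 alternatives tried. With DMSO, CCND3 was lower in MOLT-4 than in DND-41 by a log2 difference of −0.43 ± 0.06 (adjusted p = 6.96e-06).

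CCND2 (ENSG00000118971, chromosome 12), the alternative cyclin D2, was near the limit of detection. It had 17 and 12 counts in MOLT-4 with ACBI-1 and 32 and 16 counts with DMSO, and in DND-41 3 and 5 counts with ACBI-1 and 5 and 6 with DMSO. The MOLT-4 groups overlapped in CPM, and the change there was −0.65 ± 0.40 (adjusted p = 0.196). Without MOLT-4 DMSO replicate 2 it was −1.09 (adjusted p = 0.0337), and without MOLT-4 DMSO replicate 1 it was −0.022 (adjusted p = 0.981). With DMSO, both MOLT-4 libraries had more CCND2 counts than either DND-41 library, a comparison that CCND2 entered through MOLT-4 alone. CCND1, the cyclin absent from most lymphoid cells and not a member, had 1 and 4 counts in MOLT-4 with ACBI-1, 2 and 38 with DMSO, and 0 to 4 in DND-41. The 38 counts came from the library with 1115 counts of COL1A1, and the part of those other transcripts in the CCND1 count was not tested. Per kilobase of exon, CCND3 made up 99.6% or more of the summed D-type cyclin level in each of the 8 libraries.

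CDK6 (ENSG00000105810, chromosome 7), the cyclin D kinase of the early lymphoid lineage, fell in both lines. It had 709 and 625 CPM in MOLT-4 with ACBI-1, against 1054 and 1021 CPM with DMSO (−0.64 ± 0.07, adjusted p = 4.40e-07). In DND-41 it had 265 and 376 CPM with ACBI-1, against 603 and 571 CPM with DMSO (−0.86 ± 0.11, adjusted p = 2.28e-05). Every ACBI-1 library lay below both DMSO libraries of its line, and the 2 DND-41 ACBI-1 libraries lay further apart in CDK6 than any other pair. Both calls held under every alternative. The difference between lines was 0.23 ± 0.15 (adjusted p = 0.363), with a 95% interval from −0.06 to 0.53. It passed at 0.51 (adjusted p = 0.00114) without DND-41 ACBI-1 replicate 2, the higher of that pair, and was 0.01 (adjusted p = 1.0) without DND-41 ACBI-1 replicate 1. With DMSO, CDK6 was higher in MOLT-4 than in DND-41 (0.82 ± 0.11, adjusted p = 1.63e-06). AC002454.1 (ENSG00000237819), an RNA annotated on the other strand over exons of CDK6, had 247 and 239 counts in MOLT-4 with ACBI-1 against 730 and 772 with DMSO, and 188 and 179 in DND-41 with ACBI-1 against 379 and 375 with DMSO. Its log2 fold change was −1.55 ± 0.08 in MOLT-4 (adjusted p = 5.55e-12) and −1.06 ± 0.10 in DND-41 (adjusted p = 1.28e-06). The libraries were strand-specific, but the strand setting of the counting is not given in the sources used here, so reads of the 2 genes may not be told apart.

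CDK4 (ENSG00000135446, chromosome 12) is the other cyclin D kinase. It had 113 and 110 CPM in MOLT-4 with ACBI-1, against 102 and 95.4 CPM with DMSO, with no overlap between the groups. The MOLT-4 change was 0.18 ± 0.05 (adjusted p = 0.0127). The call ended on raw library size (0.10, adjusted p = 0.356), with DESeq2 (0.18, adjusted p = 0.076), without MOLT-4 ACBI-1 replicate 1 (0.16, adjusted p = 0.107), without MOLT-4 DMSO replicate 2 (0.14, adjusted p = 0.0931) and without replicate 2 in both arms (0.14, adjusted p = 0.407). CDK4 in DND-41 had 98.1 and 84.2 CPM with ACBI-1, against 84.1 and 85.3 CPM with DMSO, where the groups overlapped (0.12 ± 0.07, adjusted p = 0.206; 0.22, adjusted p = 0.00224 without ACBI-1 replicate 2; 0.002, adjusted p = 0.98 without ACBI-1 replicate 1). TSPAN31, which overlaps CDK4 on the other strand, had 237 to 274 counts in every library and passed in neither line. With DMSO, CDK4 was higher in MOLT-4 than in DND-41 (0.22 ± 0.07, adjusted p = 0.0091), a call that ended under 3 of 17 alternatives: on raw library size (0.11, adjusted p = 0.194), without DND-41 DMSO replicate 1 (0.21, adjusted p = 0.0662) and without MOLT-4 DMSO replicate 1 (0.17, adjusted p = 0.0922).

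The kinases were also set against each other within each library. Per kilobase of exon, CDK6 was 1.54 ± 0.113 times CDK4 in MOLT-4 with ACBI-1 and 2.73 ± 0.0636 times with DMSO (SD, n = 2 libraries each). In DND-41 it was 0.924 ± 0.32 times with ACBI-1 and 1.79 ± 0.0849 times with DMSO (SD, n = 2 each). No test was run on these ratios. CDK4 and CDK6 together summed to 93.4 and 85.8 CPM per kilobase in MOLT-4 with ACBI-1, against 118 and 113 with DMSO. The DND-41 sums were 52.6 and 57.3 with ACBI-1, against 75.7 and 73.5 with DMSO. All 4 ACBI-1 libraries were below their DMSO libraries.

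**Figure D3:**
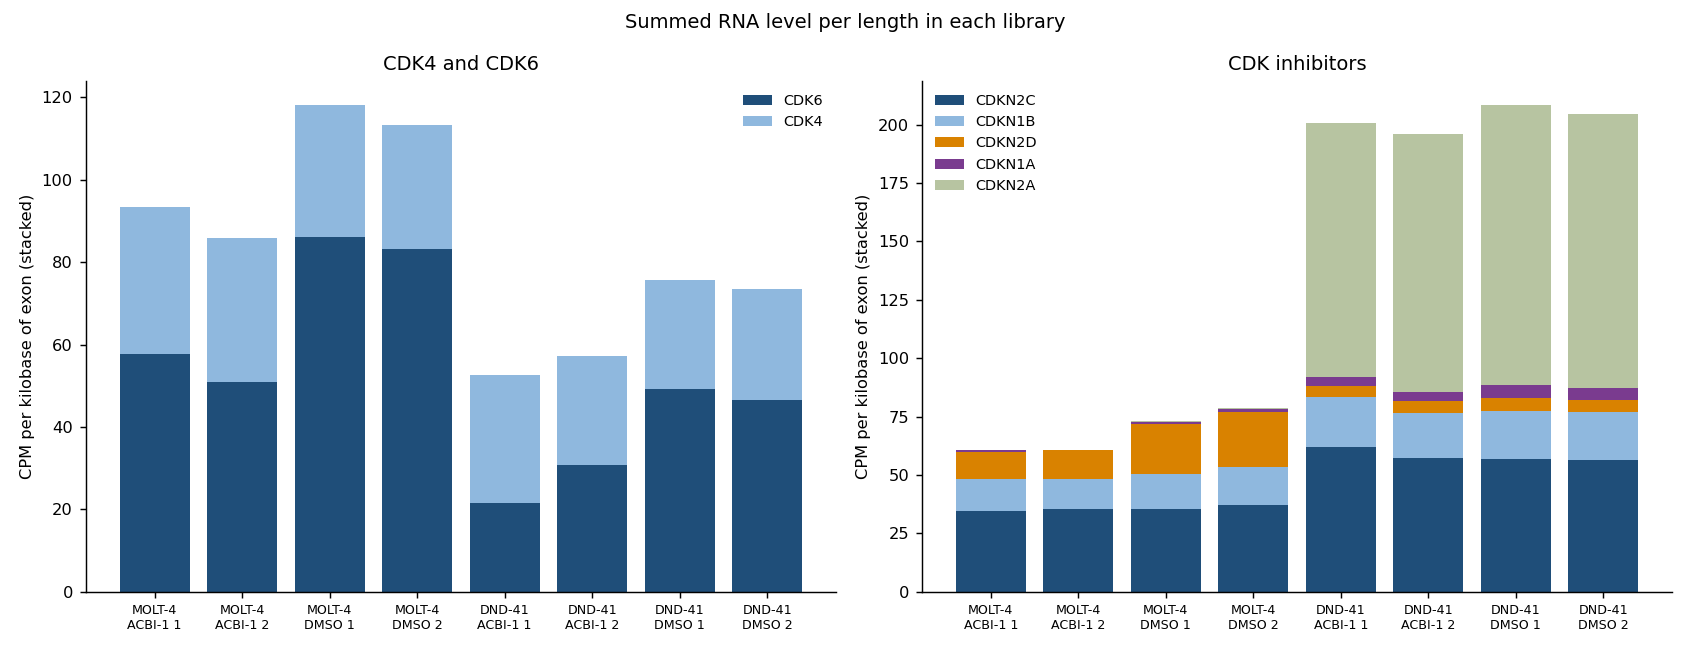
CPM per kilobase of exon, stacked (linear axes), of CDK6 and CDK4 (left) and of the CDK inhibitors with the non-member CDKN2A (right) in each of the 8 libraries; CDKN1C and CDKN2B are too low to draw. The CDK6 blocks shrink with ACBI-1 in both lines, the CDKN2D blocks are largest in MOLT-4 with DMSO, and CDKN2A fills 54.2% to 57.3% of the DND-41 bars.

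CDKN2D (ENSG00000129355, chromosome 19), the INK4 protein p19, changed in MOLT-4. It had 17.5 and 18.3 CPM in MOLT-4 with ACBI-1, against 32.5 and 35.7 CPM with DMSO. The MOLT-4 groups did not overlap and the log2 fold change was −0.94 ± 0.08 (adjusted p = 1.21e-08), a call kept under every alternative. In DND-41 it had 6.79 and 7.40 CPM with ACBI-1, against 8.49 and 7.83 CPM with DMSO (−0.19 ± 0.13, adjusted p = 0.275), where the groups did not overlap either. The difference between lines was −0.73 ± 0.15 (adjusted p = 0.00207) and held under every alternative. With DMSO, CDKN2D was higher in MOLT-4 than in DND-41 (2.06 ± 0.10, adjusted p = 7.74e-13).

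CDKN2C (ENSG00000123080, chromosome 1), the INK4 protein p18 and a brake on thymocyte division in mice, was the most abundant member inhibitor per length in all 8 libraries. It had 115 and 117 CPM in MOLT-4 with ACBI-1, against 117 and 124 CPM with DMSO (−0.06 ± 0.05, adjusted p = 0.384), so that the groups met at 117 CPM. CDKN2C in DND-41 had 205 and 191 CPM with ACBI-1, against 188 and 188 CPM with DMSO (0.09 ± 0.06, adjusted p = 0.266; 0.14, adjusted p = 0.0403 without ACBI-1 replicate 2; 0.029, adjusted p = 0.714 without ACBI-1 replicate 1). Its share of the summed member inhibitors per kilobase was 57.5% ± 0.707 in MOLT-4 with ACBI-1 and 47.9% ± 0.566 with DMSO, and 67.2% ± 0.0707 in DND-41 with ACBI-1 and 64.6% ± 0.566 with DMSO (SD, n = 2 libraries each). In MOLT-4 the CDKN2D share was 19.2% and 20% with ACBI-1, against 29.6% and 30.3% with DMSO. With DMSO, CDKN2C was lower in MOLT-4 than in DND-41 (−0.64 ± 0.06, adjusted p = 1.08e-08). CDKN2A, the INK4 and ARF locus and not a member, had 9 and 6 counts in MOLT-4 with ACBI-1 and 8 and 17 with DMSO, and 9865 and 10473 counts in DND-41 with ACBI-1 and 10928 and 10530 with DMSO.

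CDKN1A (ENSG00000124762, chromosome 6), the CIP/KIP inhibitor p21, had 28 and 17 counts in MOLT-4 with ACBI-1, against 49 and 72 counts with DMSO, which are 1.48 and 0.936 CPM against 2.57 and 3.58 CPM. The groups did not overlap, and the log2 fold change was −1.35 ± 0.29 (adjusted p = 8.09e-04). The library with 72 counts is the one with 1115 counts of COL1A1, and the part of its collagen-bearing RNA in the CDKN1A count was not tested. Without replicate 2 in both MOLT-4 arms the change was −0.81 (adjusted p = 0.0959). In DND-41 it had 11.3 and 12.2 CPM with ACBI-1, against 16.1 and 14.4 CPM with DMSO (−0.36 ± 0.11, adjusted p = 0.0119). That call ended with DESeq2 (−0.37, adjusted p = 0.114) and without DND-41 DMSO replicate 1 (−0.29, adjusted p = 0.133). The difference between lines was −0.96 ± 0.29 (adjusted p = 0.0309). It ended with DESeq2 (adjusted p = 0.0981), without DND-41 DMSO replicate 2 (−0.88, adjusted p = 0.0863), without MOLT-4 ACBI-1 replicate 2 (−0.68, adjusted p = 0.236), without MOLT-4 DMSO replicate 2 (−0.72, adjusted p = 0.2) and without both (−0.44, adjusted p = 0.586). With DMSO, CDKN1A was lower in MOLT-4 than in DND-41 (−2.31 ± 0.16, adjusted p = 1.91e-10).

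CDKN1B (ENSG00000111276, chromosome 12), the inhibitor p27, had 38.9 and 36.6 CPM in MOLT-4 with ACBI-1, against 42.2 and 45.2 CPM with DMSO (−0.22 ± 0.07, adjusted p = 0.0232), with no overlap. The call ended with DESeq2 (−0.21, adjusted p = 0.189), without MOLT-4 ACBI-1 replicate 2 (−0.16, adjusted p = 0.19), without MOLT-4 DMSO replicate 2 (−0.16, adjusted p = 0.114) and without replicate 2 in both arms (−0.13, adjusted p = 0.472). CDKN1B in DND-41 had 61.3 and 53.8 CPM with ACBI-1, against 58.2 and 57.6 CPM with DMSO (0.00 ± 0.07, adjusted p = 0.969), and the groups overlapped. With DMSO, CDKN1B was lower in MOLT-4 than in DND-41 (−0.41 ± 0.07, adjusted p = 5.79e-05).

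CDKN1C (ENSG00000129757, chromosome 11), the imprinted inhibitor p57, was at 0 counts in all 4 DND-41 libraries. In MOLT-4 it had 6 and 6 counts with ACBI-1, against 17 and 12 counts with DMSO (−1.18 ± 0.46, adjusted p = 0.0417). It entered that test through its DMSO libraries alone, the group where it is higher, so the p is no independent support for a fall. The call ended under 8 of 12 alternatives, among them DESeq2 (−1.20, adjusted p = 0.407) and each library left out in turn. The change was then −1.15 without ACBI-1 replicate 1, −1.21 without ACBI-1 replicate 2, −0.87 without DMSO replicate 1 and −1.44 without DMSO replicate 2. Set against a floor of 3 counts per DND-41 library, the mean MOLT-4 level was 2.31 times that floor with ACBI-1 and 5.18 times with DMSO. These ratios leave out the counting error of 6 to 17 counts, so they are no lower bounds. CDKN1C entered the DMSO comparison of the lines through MOLT-4 alone. KCNQ1OT1, the antisense RNA of the same imprinted domain, had 129 and 85 counts in MOLT-4 with ACBI-1 and 58 and 94 with DMSO. These are 6.83 and 4.68 CPM against 3.04 and 4.67 CPM, a log2 fold change of 0.57 ± 0.21 (adjusted p = 0.033). KCNQ1OT1 in DND-41 was at −0.06 ± 0.19 (adjusted p = 0.819), and its difference between lines was 0.65 ± 0.31 (adjusted p = 0.204).

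RB1 (ENSG00000139687, chromosome 13), the retinoblastoma protein, had 185 and 167 CPM in MOLT-4 with ACBI-1, against 207 and 197 CPM with DMSO (−0.20 ± 0.06, adjusted p = 0.00772). The call ended without MOLT-4 ACBI-1 replicate 2 (−0.13, adjusted p = 0.191) and without replicate 2 in both arms (−0.17, adjusted p = 0.177). DND-41 cells had 116 and 125 CPM with ACBI-1, against 119 and 115 CPM with DMSO (0.05 ± 0.06, adjusted p = 0.518), and these groups overlapped. The difference between lines was −0.24 ± 0.09 (adjusted p = 0.0818). It passed on raw library size (−0.36, adjusted p = 0.0353), without DND-41 ACBI-1 replicate 1 (−0.28, adjusted p = 0.0375) and without mitochondrially encoded genes (−0.27, adjusted p = 0.048). LPAR6, which lies within RB1, had 250 and 203 counts in MOLT-4 with ACBI-1 against 440 and 416 with DMSO, a log2 fold change of −0.84 ± 0.10 (adjusted p = 1.52e-06). In DND-41 LPAR6 did not pass (0.11 ± 0.08, adjusted p = 0.313), and its difference between lines was −0.93 ± 0.14 (adjusted p = 1.07e-04). With DMSO, 4 of the 8 members with 10 or more counts in each DMSO library were higher and 4 lower in MOLT-4 than in DND-41, against a background of 33.2% and 30.7%, 63.8% in either direction, and RB1 was among the higher ones (0.78 ± 0.06, adjusted p = 1.66e-09). The line and any batch of the tables cannot be told apart in that comparison.

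The rest of the G1 pathway is given from 7 lists of other genes. Of their calls, 19 of 34 in MOLT-4 and 17 of 27 in DND-41 held under every alternative. The counts stand against the shares of all genes tested, 20.7% higher and 24.4% lower in MOLT-4 and 20% higher and 23.2% lower in DND-41. The E2F and DP factors, whose activator members RB1 restrains, had 6 of 10 members higher and 2 lower in MOLT-4, against 1 higher and 5 lower in DND-41, with list medians of 0.19 in MOLT-4 and −0.17 in DND-41. Of the 6 MOLT-4 rises, 2 (E2F2 and E2F3) remained without replicate 2 in both arms, and the same 2 on raw library size, where E2F1, E2F6, E2F7 and TFDP1 did not pass. In MOLT-4 E2F2 rose by 0.43 ± 0.07 and E2F3 by 0.41 ± 0.05, while E2F8 fell (−0.54 ± 0.07). In DND-41 E2F8 also fell (−0.40 ± 0.07) and E2F2 was at 0.01 ± 0.06 (adjusted p = 0.927). E2F3 rose in DND-41 too (0.27 ± 0.06, adjusted p = 0.00217), a call that ended without DND-41 DMSO replicate 1 (0.25). Its difference between lines did not pass (0.15 ± 0.08, adjusted p = 0.245). Of the 5 DND-41 falls, only that of E2F8 held under every alternative. E2F4 did not pass there on raw library size (−0.13, adjusted p = 0.13), nor E2F5 with DESeq2 (−0.34, adjusted p = 0.138). The TFDP1 call ended without DND-41 DMSO replicate 2 (−0.19) and the TFDP2 call without replicate 1 (−0.17). E2F4 fell in MOLT-4 too (−0.28 ± 0.05). The CDK2 arm, which acts after cyclin D, had 3 of 5 members higher and 1 lower in MOLT-4, and 2 higher and 1 lower in DND-41. Of the 3 MOLT-4 rises, only CCNE2 remained without replicate 2 in both arms, where CDK2 was at 0.24 (adjusted p = 0.0602) and CDC25A at 0.23 (adjusted p = 0.109). CDC25A in DND-41 ended under 5 of 12 alternatives, among them DESeq2 (0.18, adjusted p = 0.136). CCNE2, cyclin E2, rose by 0.77 ± 0.07 in MOLT-4 and by 0.26 ± 0.08 in DND-41, the DND-41 call ending with DESeq2 (adjusted p = 0.143) and when either DMSO library was left out (replicate 1, 0.23, adjusted p = 0.144; replicate 2, 0.27, adjusted p = 0.0818). CCNA2, cyclin A2, fell in both lines (−0.24 ± 0.05 in MOLT-4, −0.29 ± 0.06 in DND-41).

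Other brakes and cyclins had 2 of 3 tested members higher and 1 lower in MOLT-4, and 1 of 5 higher and 1 lower in DND-41. The MOLT-4 fall, of CDKN3, a phosphatase of CDK2, ended without replicate 2 in both arms. RBL2, the RB1 relative p130, rose by 0.32 ± 0.05 in MOLT-4 and by 0.32 ± 0.06 in DND-41. In the degradation list, 4 of 11 genes were higher and 3 lower in MOLT-4, and 4 higher and 1 lower in DND-41. Of the MOLT-4 calls, only CUL1 remained without replicate 2 in both arms, and 2 higher and 2 lower remained with DESeq2. Of the DND-41 calls, FBXO4 ended with DESeq2 (0.39, adjusted p = 0.079) and without DMSO replicate 1 (0.325), and CKS1B without DMSO replicate 2 (0.20). Those of FBXL8, CUL4A and CUL1 held there under every alternative. CUL1, the cullin of the ligases that remove p27 and cyclins, fell in both lines (−0.76 ± 0.06 in MOLT-4, −0.35 ± 0.07 in DND-41). The CDK-activating kinase genes had 0 of 3 called by edgeR in MOLT-4, 0 at an unadjusted p below 0.05 and 0 by DESeq2, and 1 of 3 lower in DND-41, CCNH (−0.35 ± 0.09).

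Of the FOXO transcription factors, which raise CDKN1B, and their targets, 4 of 9 tested were higher and 2 lower in MOLT-4. In DND-41, 6 of 8 were higher and 0 lower by edgeR, where 0 were lower also at an unadjusted p below 0.05 or by DESeq2. FOXO3 and FOXO4 were the factors among those 6. Of the 6, only the IL7R call (0.18) ended under any alternative, when either DND-41 DMSO library was left out (0.18 each). BCL2L11, the apoptosis inducer BIM, rose by 0.78 ± 0.06 in MOLT-4 and 0.70 ± 0.07 in DND-41. SESN3, a sestrin of the stress response, fell in MOLT-4 (−0.96 ± 0.13, adjusted p = 6.41e-06) and had 0 or 1 count in the DND-41 libraries. The other MOLT-4 fall, of FOXO4, ended without replicate 2 in both arms (−0.16, adjusted p = 0.412). CITED2 rose by 0.61 ± 0.07 in MOLT-4 and 0.58 ± 0.09 in DND-41.

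Of the 8 upstream factors, 3 of 8 tested were higher and 3 lower in MOLT-4, and 0 of 7 higher and 4 lower in DND-41 by edgeR, with 0 higher also at an unadjusted p below 0.05 or by DESeq2. NOTCH1, the receptor that drives CCND3 and MYC in T-ALL, fell in both (−2.60 ± 0.06 in MOLT-4, −1.22 ± 0.08 in DND-41). MYC rose in MOLT-4 (0.28 ± 0.07, adjusted p = 0.00156; 0.20, adjusted p = 0.111 on raw library size) and fell in DND-41 (−0.43 ± 0.06, adjusted p = 3.72e-05). MYB rose in MOLT-4 (0.62 ± 0.07) and was at −0.15 ± 0.06 in DND-41 (adjusted p = 0.0738). GATA3 fell in both (−0.90 ± 0.07 in MOLT-4, −0.59 ± 0.06 in DND-41).

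**Figure D4:**
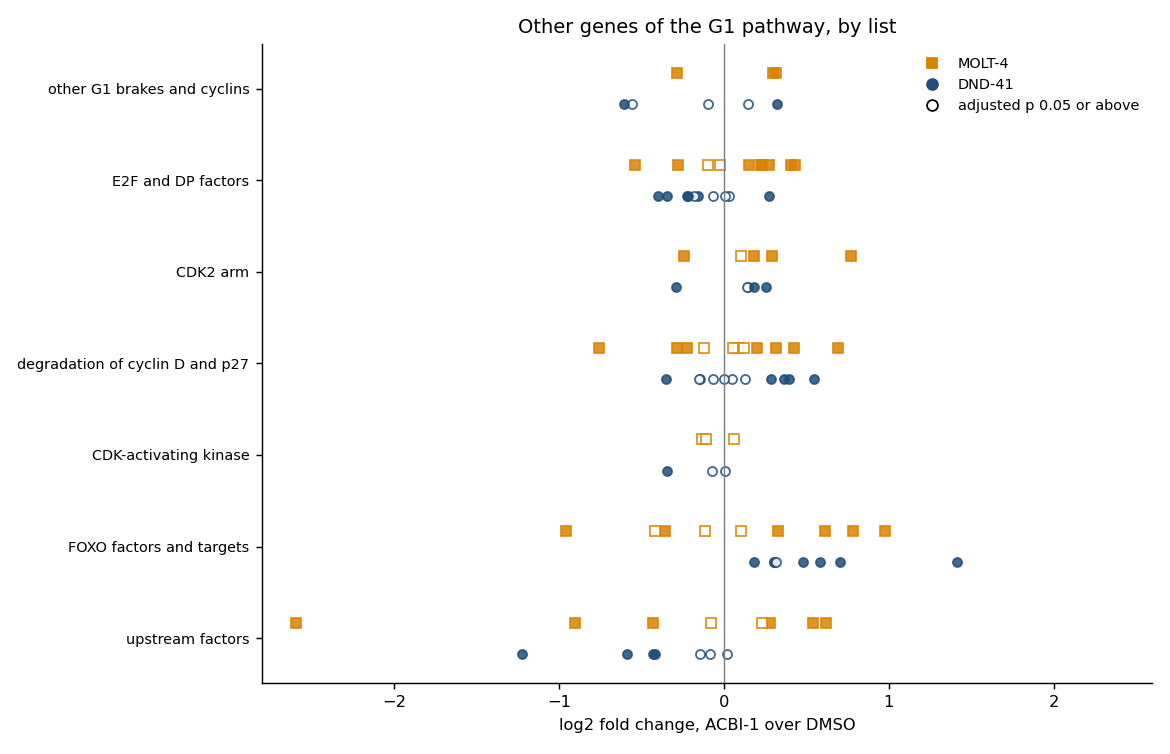
Log2 fold change, ACBI-1 over DMSO (x axis), of each tested gene of the 7 pathway lists (y axis) in MOLT-4 (squares, upper row of each list) and DND-41 (circles, lower row); filled symbols passed an adjusted p of 0.05. In DND-41 all 8 tested FOXO factors and targets lie above 0 and 6 of them passed, and NOTCH1 is the leftmost upstream factor in both lines.

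For the 3 members with the largest change summed over both lines, among the 8 tested in both, the genes most alike over the 8 libraries were listed by Pearson's r of log2 CPM among 10248 genes; the lines and groups shape these values, so they are a description without a p. CDK6 was most like CIT (r = 0.994), RTN4R (0.991), TRAF5 (0.990) and PHRF1 (0.986). CDKN2D was most like PCDH10 (r = 0.997), ARHGEF10, BIN1 and PRKAG2, and CDKN1A most like CHPF (r = 0.997), PKN3, NPAS2 and ITPRIP. In the DND-41 libraries CDKN2D had 142 to 179 counts and ARHGEF10 144 to 168. PCDH10, BIN1 and PRKAG2 had 0 to 3 counts there and were not tested, so their likeness to CDKN2D within DND-41 cannot be judged. RTN4R had 8.31 and 7.27 CPM in MOLT-4 with ACBI-1 against 27.2 and 27.1 CPM with DMSO, and 0.383 and 0.777 CPM in DND-41 with ACBI-1 against 5.50 and 4.78 CPM with DMSO. Its values step down with ACBI-1 and lie lower in DND-41, as those of CDK6 do.

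The authors' deposited tables run in opposite directions: against the counts, the log2 fold change of 6056 of 6056 genes called in DND-41 has the sign of ACBI-1 over DMSO, and that of 0 of 6425 genes called in MOLT-4 does, so the authors' deposited MOLT-4 values are DMSO over ACBI-1. For CDK6 the authors' deposited table gives 0.64 in MOLT-4 on that reversed scale (adjusted p = 1.04e-22) and −0.86 in DND-41 (adjusted p = 0.00301). For CCND3 the authors' deposited table gives −0.33 in MOLT-4 on the reversed scale (adjusted p = 4.05e-08) and −0.31 in DND-41 (adjusted p = 6.23e-07). In the authors' deposited table, CDK4 (adjusted p = 0.0756), CDKN1B (0.188) and CDKN1C (0.405) did not pass in MOLT-4, nor did CDKN1A in DND-41 (0.111).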

How the data were processed

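RNA-seq libraries of 4 groups, 2 each, were read as paired ends of 100 bp, per the labels. The deposited counts are raw whole numbers per gene, and the submitters' processing notes name STAR 2.5.2a, featureCounts, hg19 and DESeq2 1.12.4. Which annotation and strand setting they used is not given in the sources used here. The tables deposited by the authors give, per the file headers, log2 fold changes with standard errors, p-values raw and adjusted, and score columns for mean level and test statistic.

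Genes passing filterByExpr (minimum count 10) were scaled by TMM and tested with the quasi-likelihood F test of edgeR 4.0.16 in R 4.3.3. Each line was fitted on its 4 libraries, and the difference between lines and the DMSO comparison on all 8. Adjusted p-values follow Benjamini and Hochberg over all genes of a fit. SE was computed as |log2 fold change| over the square root of F, and intervals are 1.96 SE either side. Scripts were tested on simulated counts. Exon lengths came from GENCODE 29 (GRCh38) by gene identifier. Alternatives were other scalings and filters, a block for replicate number, libraries left out, DESeq2 1.42.0 and joint fits of all 8 libraries. Leaving out mitochondrially encoded genes was chosen after seeing the data. Named genes are the 10 members, up to 3 rises and 3 falls per list and line with the smallest adjusted p, and genes whose difference between lines passed; not all that the rule allows are printed. 1 list of other genes is not reported here. The members and lists were chosen with earlier results of these data known.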

Additional observations from a re-analysis of the deposited data

Results flagged for a closer look

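The change with ACBI-1 differed between lines, by the edgeR interaction test over all 8 libraries, for 3 members and 14 genes of the pathway lists. Over all 15498 genes, 7.18% were higher and 6.17% lower, 13.3% in either direction. Tested for it were 10 E2F and DP factors, 11 degradation genes, 10 FOXO factors and targets and 8 upstream factors. The other lists had 5 brakes and cyclins, 5 CDK2-arm genes and 3 CDK-activating kinase genes tested. Differences are log2, MOLT-4 minus DND-41, and no cause was tested. Among members, CCND3 differed by 0.65 (adjusted p = 3.91e-05), CDKN2D by −0.73 (adjusted p = 0.00207) and CDKN1A by −0.96 (adjusted p = 0.0309). The first pair held under every alternative, while CDKN1A ended with DESeq2 (−0.98, adjusted p = 0.0981). It also ended without DND-41 DMSO replicate 2 (−0.88), MOLT-4 ACBI-1 replicate 2 (−0.68) or MOLT-4 DMSO replicate 2 (−0.72). Without both MOLT-4 replicate 2 libraries it ended too (−0.44).

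Of the upstream and FOXO lists, NOTCH1 differed by −1.36, MYC by 0.72, MYB by 0.79, IKZF1 by 0.54 and FOXO4 by −0.82, and these calls held under every alternative. FOXO4 was at −0.36 in MOLT-4 and 0.48 in DND-41, and the MOLT-4 value was −0.21 (adjusted p = 0.138) without ACBI-1 replicate 2, −0.16 (adjusted p = 0.412) without replicate 2 in both arms and −0.35 (adjusted p = 0.12) with DESeq2. PIK3IP1, an inhibitor of PI3K, differed by −1.81, RUNX3 by 0.66, CCNE2 by 0.54 and TFDP1 by 0.39. These held with any 1 library left out, and ended without both MOLT-4 replicate 2 libraries (adjusted p = 0.0583 for PIK3IP1, 0.119 for RUNX3, 0.0511 for CCNE2 and 0.0586 for TFDP1, which also ended on raw library size, 0.27, adjusted p = 0.104).

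The other differences ended without at least 1 single library. E2F2 differed by 0.44 and CUL1 by −0.39, and both ended without MOLT-4 ACBI-1 replicate 1 (adjusted p = 0.0511 for E2F2 and 0.0525 for CUL1), and E2F2 also ended on raw library size (0.32, adjusted p = 0.0841). E2F7 differed by 0.31 and ended without either DND-41 DMSO library, MOLT-4 ACBI-1 replicate 1 or MOLT-4 DMSO replicate 2 (adjusted p up to 0.178), on raw library size (0.19, adjusted p = 0.284), by DESeq2 (0.30, adjusted p = 0.0788) and with replicate 2 dropped from both MOLT-4 arms (0.26, adjusted p = 0.23). FBXW7 differed by −0.39 and ended without DND-41 ACBI-1 replicate 2, either DND-41 DMSO library or MOLT-4 ACBI-1 replicate 1 (adjusted p up to 0.0743), with replicate 2 dropped from both MOLT-4 arms (adjusted p = 0.0893) and by DESeq2 (adjusted p = 0.0792). E2F6 differed by 0.47 and ended without any of 6 of the 8 libraries, the DND-41 ACBI-1 pair being the exception (adjusted p up to 0.0683), on raw library size (0.35, adjusted p = 0.155), with no filter (adjusted p = 0.0505), with replicate 2 dropped from both MOLT-4 arms (adjusted p = 0.143) and by DESeq2 (adjusted p = 0.221).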

How the results depend on the processing

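Calls of CCND3 and CDK6 in both lines and of CDKN2D in MOLT-4 held under every alternative. Counts of members here include CDKN1C, with which 2 were higher and 6 lower in MOLT-4. Members called higher in MOLT-4 were 1 with library size alone, with DESeq2 and without replicate 2 in both arms, and 1 to 2 without 1 library. Members called lower there were 2 without replicate 2 in both arms and 3 to 5 without 1 library. In DND-41, 0 to 2 were higher without 1 library. For the difference between lines, 1 was lower with DESeq2 and without both MOLT-4 replicate 2 libraries, and 1 to 2 were higher and 1 to 3 lower without 1 library. Genes called higher in DND-41 were 1722 with DESeq2 and 1745 to 3044 without 1 library. In MOLT-4, genes called higher were 1781 with library size alone, 1765 with DESeq2 and 1357 without both replicate 2 libraries, and genes called lower 2267 with DESeq2 and 2232 without both. For the difference, genes called higher were 499 with library size alone, 669 with DESeq2, 440 without both and 699 to 1207 without 1 library, and genes called lower 504 without both and 621 to 989 without 1 library. With no length, CDK6 over CDK4 was 5.98 in MOLT-4 with ACBI-1 and 10.6 with DMSO, 3.58 in DND-41 with ACBI-1 and 6.93 with DMSO, and the CDKN2C share 67.0%, 59.6%, 72.2% and 69.8% in that order. Signs turned, with no call, for CDKN1B in DND-41 (−0.006 with no filter, −0.009 with all 8 libraries, −0.095 to 0.095 without 1 library), for the CCND2 difference (−0.637 to 0.463 without 1 library) and for the CDK4 difference (−0.045 with library size alone, −0.029 to 0.194 without 1 library). The cause was not tested. Low counts limit CCND2, CDKN1C and CDKN1A in MOLT-4.

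Replicates share a number only. Their deviations correlated at 0.269 in MOLT-4 and 0.168 in DND-41, over 2 pairs a line. With the replicate block, 2 members were higher and 6 lower in MOLT-4, 0 and 3 in DND-41, and 1 and 3 for the difference, where RB1 passed (−0.24, adjusted p = 0.0325). Genes called were 3217 higher and 3703 lower in MOLT-4, 3297 and 3579 in DND-41, and 1398 and 1181 for the difference. Between lines with DMSO they were 5295 and 4946, and 6 and 4 members were called. The 6 include CCND2 and CDKN1C, which entered that comparison through MOLT-4 alone.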
